A study of Mus musculus with 6 samples.

Results

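The 36 genes described here are 16 glycolytic enzymes, 5 genes that feed, drain or tune glycolysis, and 15 genes of the response to low oxygen. The enzymes were Hk1, Hk2, Hk3, Gpi1, Pfkl, Pfkp, Pfkm, Aldoa, Aldoc, Tpi1, Gapdh, Pgk1, Pgam1, Eno1, Pkm and Ldha. The feeding and tuning genes were Slc2a1, Slc2a3, Slc16a3, Pfkfb3 and Pfkfb4, and are called transporters and PFKFB genes below. The hypoxia genes were Vegfa, Bnip3, Bnip3l, Egln1, Egln3, P4ha1, P4ha2, Ndrg1, Ankrd37, Hilpda, Adm, Car9, Ero1a, Pdk1 and Hif1a. They were taken by name from a list and not by a rule on their values, but the list was chosen with earlier results of these data known. All 36 were found in each of the 6 count matrices, among 29781 genes listed in any of them. Together they held 2384913 of the 224922307 UMIs (unique molecular identifiers, each standing for 1 captured transcript) of the kept cells. All mice were wild-type C57BL/6J carrying orthotopic KPC tumours, which are tumours grown in the pancreas from a mouse pancreatic cancer line. By the labels, 3 mice received IgG and 3 received #44-anti-mVSIG4, an antibody against the macrophage complement receptor VSIG4, at doses and times that the labels do not give. Tumours were taken 11 days after inoculation, so the IgG group is a treated control carrying the same tumour, and no tumour-free pancreas was analysed here. The host keeps its own immune cells, and the tumour cells come from 1 line.

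Each mouse gave 1 droplet library of 26606234 to 47221033 UMIs, and 47603 of 47794 barcodes were kept. Clusters were named from marker genes and stand for cells like that type. There were 16098 neutrophils (median 1574 UMIs per cell), 11345 monocyte/macrophages (4475), 6132 T cells (3023.5), 2670 tumour/epithelial cells (6258) and 904 fibroblasts (4739.5). The 36 genes were left out of the genes that built the clusters, but a state is still a cluster of the same cells whose levels are compared. A set of 5567 barcodes was nucleus-like, with a median above 15% of UMIs in genes spanning over 100 kb, and was given no class. These made up 0.587%, 15.5% and 40.2% of the kept cells in IgG 1, 2 and 3 and 0.632%, 0.417% and 5.06% in anti-VSIG4 1, 2 and 3. IgG 1 and anti-VSIG4 1 and 2 are called few-kind libraries below, and IgG 2 and 3 and anti-VSIG4 3 many-kind libraries. Cell names in the deposited matrices are serial numbers, so barcodes shared between libraries could not be counted. The labels name 6 mice, and p-values measure the spread between these 6 libraries.

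Glycolysis splits glucose into pyruvate, which lactate dehydrogenase turns into lactate when oxygen is short or when cells run glycolysis fast. The factor HIF-1, of which Hif1a encodes the oxygen-regulated subunit, is broken down after prolyl hydroxylases such as Egln1 and Egln3 mark it in the presence of oxygen. When oxygen falls it binds hypoxia response elements with the core ACGTG or GCGTG and raises glucose uptake, most glycolytic steps, blood vessel signals and its own hydroxylases. Pancreatic tumours are poorly supplied with blood, and neutrophils, which hold few mitochondria, are known to rely on glycolysis for energy.

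The promoters of the genes show how many carry that core. RefSeq promoter sequences of the mouse build GRCm38.p6 were matched by symbol for 33 of the 36 genes, and the 250 bases before each annotated start were searched for ACGTG and GCGTG on both strands. Promoters of Ndrg1, Slc2a3 and Bnip3l were not matched. ACGTG stood in at least 1 promoter of 22 of the 33 genes, against 18.5% of all 27025 genes with a promoter. ACGTG or GCGTG stood in 31 of the 33, against 41.5% of all genes. By role, ACGTG was found for 8 of 16 enzymes, 3 of 4 transporters and PFKFB genes and 11 of 13 hypoxia genes. At least 2 copies of ACGTG were found for 6 of the 33, against 2.28% of all genes. Both cores contain CG, and the median number of CG pairs in the same 250 bases was 17 for these genes and 6 for all genes; the part of this in the counts was not tested. Among the 22 matched genes with 1 promoter, 15 held ACGTG, against 16.3% of all genes with 1 promoter. A match is a run of letters and not a measured binding site.

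The promoters of the 6 hypoxia genes with the largest differences between Arg1 and C1q macrophages, among those matched, are shown, 5′ to 3′ on the gene's strand, with every ACGTG or GCGTG in capitals as it reads on that strand (CACGT and CACGC where the core lies on the other strand). They are those of Adm at chr7:110627407-110627656 (plus strand), Egln3 at chr12:54203875-54204124 (minus strand), Ero1a at chr14:45318573-45318822 (minus strand), P4ha2 at chr11:54100674-54100923 (plus strand), Ankrd37 at chr8:45999851-46000100 (minus strand) and Bnip3 at chr7:138909507-138909756 (minus strand). All 6 lie just upstream of the annotated transcript start.
Adm: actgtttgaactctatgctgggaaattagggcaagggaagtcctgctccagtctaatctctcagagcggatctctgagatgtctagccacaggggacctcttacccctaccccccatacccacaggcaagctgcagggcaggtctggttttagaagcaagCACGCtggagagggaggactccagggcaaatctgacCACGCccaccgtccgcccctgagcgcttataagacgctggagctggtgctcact
Egln3: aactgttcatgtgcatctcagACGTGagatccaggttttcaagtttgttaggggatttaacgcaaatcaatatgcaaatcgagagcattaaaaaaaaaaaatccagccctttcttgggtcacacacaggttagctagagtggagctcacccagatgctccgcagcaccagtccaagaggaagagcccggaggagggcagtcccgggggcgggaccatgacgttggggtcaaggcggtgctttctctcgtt
Ero1a: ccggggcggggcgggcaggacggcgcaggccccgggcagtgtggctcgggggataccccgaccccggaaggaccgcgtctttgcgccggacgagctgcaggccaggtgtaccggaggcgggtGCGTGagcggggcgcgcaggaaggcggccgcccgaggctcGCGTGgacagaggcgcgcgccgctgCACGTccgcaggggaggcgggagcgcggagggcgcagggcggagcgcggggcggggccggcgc
P4ha2: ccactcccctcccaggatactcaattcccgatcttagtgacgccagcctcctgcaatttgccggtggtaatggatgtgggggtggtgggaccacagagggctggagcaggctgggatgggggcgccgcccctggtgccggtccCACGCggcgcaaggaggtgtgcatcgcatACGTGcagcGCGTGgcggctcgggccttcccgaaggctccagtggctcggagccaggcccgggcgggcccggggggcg
Ankrd37: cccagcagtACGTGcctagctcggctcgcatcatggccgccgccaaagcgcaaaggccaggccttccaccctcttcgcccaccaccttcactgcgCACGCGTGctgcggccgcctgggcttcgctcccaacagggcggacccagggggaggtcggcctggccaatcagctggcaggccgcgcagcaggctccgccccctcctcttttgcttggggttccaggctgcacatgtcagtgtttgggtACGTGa
Bnip3: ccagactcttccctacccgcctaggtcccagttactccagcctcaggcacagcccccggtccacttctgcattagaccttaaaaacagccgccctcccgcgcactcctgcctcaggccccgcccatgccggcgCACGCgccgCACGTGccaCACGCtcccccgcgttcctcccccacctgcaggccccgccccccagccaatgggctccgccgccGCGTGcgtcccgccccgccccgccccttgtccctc
The Adm promoter held 2 copies of GCGTG, none of ACGTG. Matches that overlap, such as the CACGC and GCGTG that share bases in Ankrd37, were counted as 1 core. So counted, Bnip3 held 4 cores and Ankrd37 3, of which 1 and 2 were ACGTG. Ero1a and P4ha2 held 3 cores each with 1 ACGTG, and the Egln3 window held a single ACGTG.

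As summed shares of UMIs, the enzymes peaked in tumour/epithelial cells, and the transporter group and the hypoxia genes in neutrophils. The glycolytic enzymes took 1.24 ± 0.154% of UMIs in tumour/epithelial cells (mean ± SD, n = 6 libraries), 0.849 ± 0.113% in monocyte/macrophages and 0.850 ± 0.128% in neutrophils. They took 0.729 ± 0.0790% in conventional dendritic cells of type 2, 0.688 ± 0.0851% in fibroblasts, 0.596 ± 0.0708% in T cells and 0.190 ± 0.0540% in plasma cells. In every library the tumour/epithelial share lay above the monocyte/macrophage share, with ranges of 1.08% to 1.496% and 0.739% to 0.991%, and the ranges of monocyte/macrophages and neutrophils (0.738% to 1.01%) overlapped.

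Transporters and PFKFB genes took 0.162 ± 0.0343% of UMIs in neutrophils, 0.0663 ± 0.00783% in monocyte/macrophages and 0.0616 ± 0.00792% in tumour/epithelial cells, and the neutrophil range of 0.131% to 0.215% did not overlap that of monocyte/macrophages (0.0536% to 0.0754%). Hypoxia genes took 0.276 ± 0.0329% in neutrophils, 0.200 ± 0.0341% in monocyte/macrophages, 0.194 ± 0.0484% in tumour/epithelial cells, 0.170 ± 0.0328% in fibroblasts, 0.0756 ± 0.0147% in T cells and 0.0373 ± 0.0122% in plasma cells. Neutrophils were above monocyte/macrophages in all 6 libraries, with overlapping ranges. The ranges of monocyte/macrophages (0.152% to 0.236%) and tumour/epithelial cells (0.132% to 0.271%) overlapped, and every plasma cell library lay below both. These are shares of each class's own UMIs, so a larger share cannot be told apart from fewer transcripts of other genes.

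**Figure D1:**
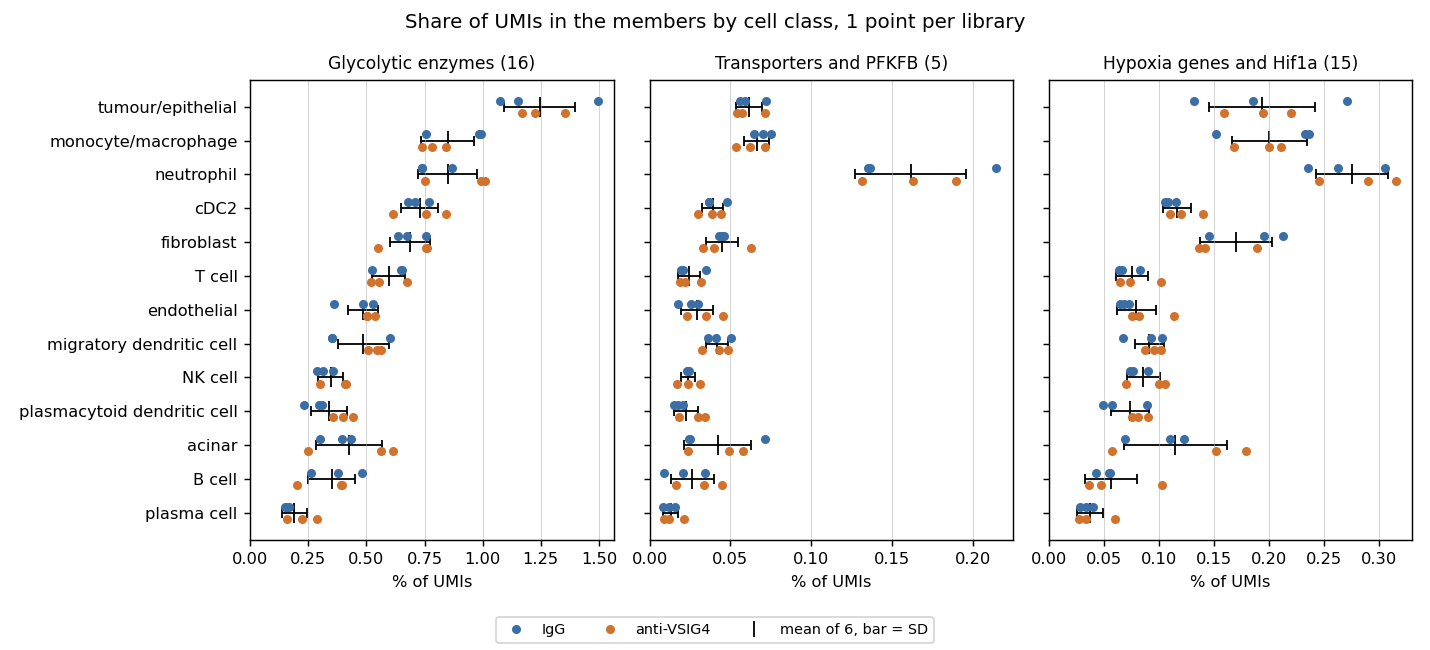
Percent of UMIs (linear axis from 0) taken by the glycolytic enzymes, the transporters and PFKFB genes and the hypoxia genes in each cell class. Each point is 1 library, coloured by treatment, the vertical tick is the mean of the 6 libraries and the bar its SD; enzymes were highest in tumour/epithelial cells and the transporter group in neutrophils.

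Gene by gene, 14 of the 36 had their highest mean level (CPM, the UMIs of a gene per 1000000 UMIs of the population) in tumour/epithelial cells and 13 in neutrophils. For Pfkl, Tpi1, Gapdh, Ldha and Egln1 the lowest tumour/epithelial library stood above every library of the class with the second highest mean. For Hk2, Slc2a1, Slc2a3, Slc16a3, Pfkfb4 and Egln3 the same held for neutrophils. Classes of lower mean were not compared library by library. P4ha1 and P4ha2, the catalytic subunits of collagen prolyl hydroxylase, were highest in fibroblasts, with no overlap with the class of second highest mean. Pfkfb3, a maker of the activator of phosphofructokinase, was highest in migratory dendritic cells, also with no overlap with the class of second highest mean. Gpi1 and Hif1a were highest in monocyte/macrophages, Pfkp and Aldoc in conventional dendritic cells of type 2, Adm in endothelial cells and Car9 in acinar cells, each with overlapping libraries. The acinar class held 146 cells, of which 6 were in anti-VSIG4 3, so the place of Car9 rests on few cells.

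The genes that took most UMIs of each group show these orders. Gapdh, the enzyme of the first oxidation step, averaged 4656 ± 702 CPM in tumour/epithelial cells, 2431 ± 339 in monocyte/macrophages, 2399 ± 613 in neutrophils, 2087 ± 308 in T cells and 561 ± 174 in plasma cells, and the middle 3 did not differ beyond their spread. On the CPM scale Aldoa, an aldolase, was level at 1229.8 ± 168, 1215 ± 248 and 1171 ± 184 in neutrophils, monocyte/macrophages and tumour/epithelial cells. Pkm, the pyruvate kinase, averaged 1449 ± 81.0, 1222 ± 149 and 1011 ± 95.3 CPM in tumour/epithelial cells, neutrophils and monocyte/macrophages. The lactate exporter Slc16a3 averaged 1095 ± 269 CPM in neutrophils, above 442 ± 60.04 in monocyte/macrophages and 434 ± 51.1 in tumour/epithelial cells, which did not differ beyond their spread, and 142 ± 46.8 in T cells. Hilpda averaged 1162 ± 269.6 CPM in neutrophils, 657 ± 240.0 in monocyte/macrophages, 375 ± 142 in tumour/epithelial cells and 165 ± 71.4 in fibroblasts, an order that held within each library. Hilpda is a large part of the hypoxia gene share in neutrophils, and shares without it are not given here. Vegfa averaged 449.8 ± 66.3 CPM in neutrophils and 435 ± 64.5 in monocyte/macrophages, which were level, 254 ± 46.7 in NK cells and 239.6 ± 50.8 in tumour/epithelial cells. Hif1a averaged 260.0 ± 56.0 CPM in monocyte/macrophages, 192 ± 37.5 in T cells, 137 ± 16.3 in neutrophils and 89.8 ± 18.7 in tumour/epithelial cells. Car9, a carbonic anhydrase at the cell surface, was low in each of these classes, at 20.7 ± 14.48 CPM in fibroblasts, 12.8 ± 7.83 in tumour/epithelial cells and 0.988 ± 0.503 in neutrophils.

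Near-copies can draw reads from some of these genes. The UMIs listed for Eno1b came to 45.2% of those of Eno1, so Eno1 levels are uncertain, and those of Gapdhrt to 5.69% of Gapdh. The antisense gene Hk1os came to 3.96% of Hk1.

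Among the 36 genes, the largest fold between neutrophils and monocyte/macrophages of the same libraries was in a sugar transporter. Slc2a3, the high-affinity glucose transporter of neutrophils and neurons, stood at 206, 133 and 200.1 CPM in the IgG libraries and 175, 126 and 89.2 CPM in the anti-VSIG4 libraries, in neutrophils. In monocyte/macrophages it stood at 17.1, 7.03 and 3.32 CPM in the IgG libraries and 17.4, 6.88 and 5.46 CPM in the anti-VSIG4 libraries. The lowest neutrophil library was above the highest monocyte/macrophage library, and the log2 fold change was 4.18 ± 0.24, adjusted p = 1.9e-07 (edgeR quasi-likelihood, Benjamini-Hochberg over all genes, library as block; ± standard error). With every cell thinned to 1000 UMIs, 10.02% of neutrophils, 1.14% of monocyte/macrophages and 3.24% of T cells held a Slc2a3 UMI on average over the libraries, against 14.1%, 4.99% and 10.9% without thinning. Free RNA in droplets can give such UMIs, and its part in any of these shares was not tested. The shares without thinning are not matched for depth, at a median of 4475 UMIs per cell in monocyte/macrophages against 1574 in neutrophils.

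In this comparison 15 of 36 genes passed as higher in neutrophils and 10 as lower, beside 73.3% of all genes called in either direction, 36.7% higher and 36.6% lower, so the total is near the background. The 12 dissociation stress genes moved with it, 9 called higher and 1 lower in neutrophils, and their part was not tested. The 5 transporters and PFKFB genes were all called higher: Slc16a3, which exports lactate, by 1.35 ± 0.13, adjusted p = 1.4e-07, Pfkfb4 by 1.25 ± 0.10, adjusted p = 7.8e-09, Slc2a1, the widely expressed glucose transporter, by 0.79 ± 0.13, adjusted p = 5.2e-05, and Pfkfb3 by 0.78 ± 0.12, adjusted p = 1.0e-05, on the log2 scale by the same edgeR fit. Among the enzymes Hk1, Hk2 and Pkm were called higher, with Hk2, the inducible hexokinase, at 1.32 ± 0.09, adjusted p = 7.3e-10, and Gpi1, Pfkm, Aldoc and Pgk1 were called lower. Hypoxia genes split: Egln3 (2.29 ± 0.17), Ankrd37 (1.89 ± 0.27), Ero1a (1.11 ± 0.20), Bnip3l, Hilpda, Bnip3 and P4ha1 were higher, and P4ha2 (-1.99 ± 0.21), Car9, Adm, Hif1a, Ndrg1 and Egln1 were lower. Of 18 genes of the tricarboxylic acid cycle tested beside them, 2 were called higher and 15 lower in neutrophils.

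Tumour/epithelial cells and monocyte/macrophages differed in the isoenzymes of the same steps. Hk3, the hexokinase of myeloid cells, stood at -4.47 ± 0.44, adjusted p = 6.8e-05 on the log2 scale, while Hk1 was higher by 1.10 ± 0.12, adjusted p = 1.4e-06 and Pfkm, the muscle-type phosphofructokinase, by 2.09 ± 0.13, adjusted p = 3.6e-09 (edgeR). Hk3 ranged from 2.42 to 13.7 CPM in tumour/epithelial cells and from 72.0 to 135 CPM in monocyte/macrophages, with no overlap. Aldoa, level on the CPM scale, was called lower in tumour/epithelial cells by edgeR with TMM scaling, at -0.40 ± 0.10, adjusted p = 0.0026. All 5 transporters and PFKFB genes were called lower in tumour/epithelial cells, with Pfkfb4 at -1.89 ± 0.14 and Slc2a3 at -0.60 ± 0.19, and Hif1a stood at -1.88 ± 0.11. That holds for TMM scaling; scaled to total UMIs, Pfkfb3 and Pfkfb4 were called lower, while Slc2a1 (-0.13), Slc2a3 (-0.25) and Slc16a3 (-0.02) did not pass. In all, 14 genes were called higher and 13 lower of 36, beside 73% of all genes in either direction, and with libraries scaled to total UMIs alone, which moved the median of all genes to 0.33, the split became 20 higher and 8 lower, beside 48.8% of all genes higher and 25.7% lower. Of the 12 stress genes 2 were called higher and 8 lower in tumour/epithelial cells, and their part was not tested. Against fibroblasts the tumour/epithelial cells were higher for 13 of 16 enzymes and for 23 of 36 genes in all, with 5 lower, beside 56.2% of all genes (27.7% higher, 28.5% lower). Gapdh was higher by 1.10 ± 0.10, adjusted p = 1.2e-07 and Aldoc by 1.42 ± 0.18, adjusted p = 2.8e-06, while P4ha1 and P4ha2 were -1.78 ± 0.11 and -1.70 ± 0.14, that is higher in fibroblasts. Of the 12 stress genes 11 were called higher in fibroblasts and 0 in tumour/epithelial cells, and their part was not tested.

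**Figure D2:**
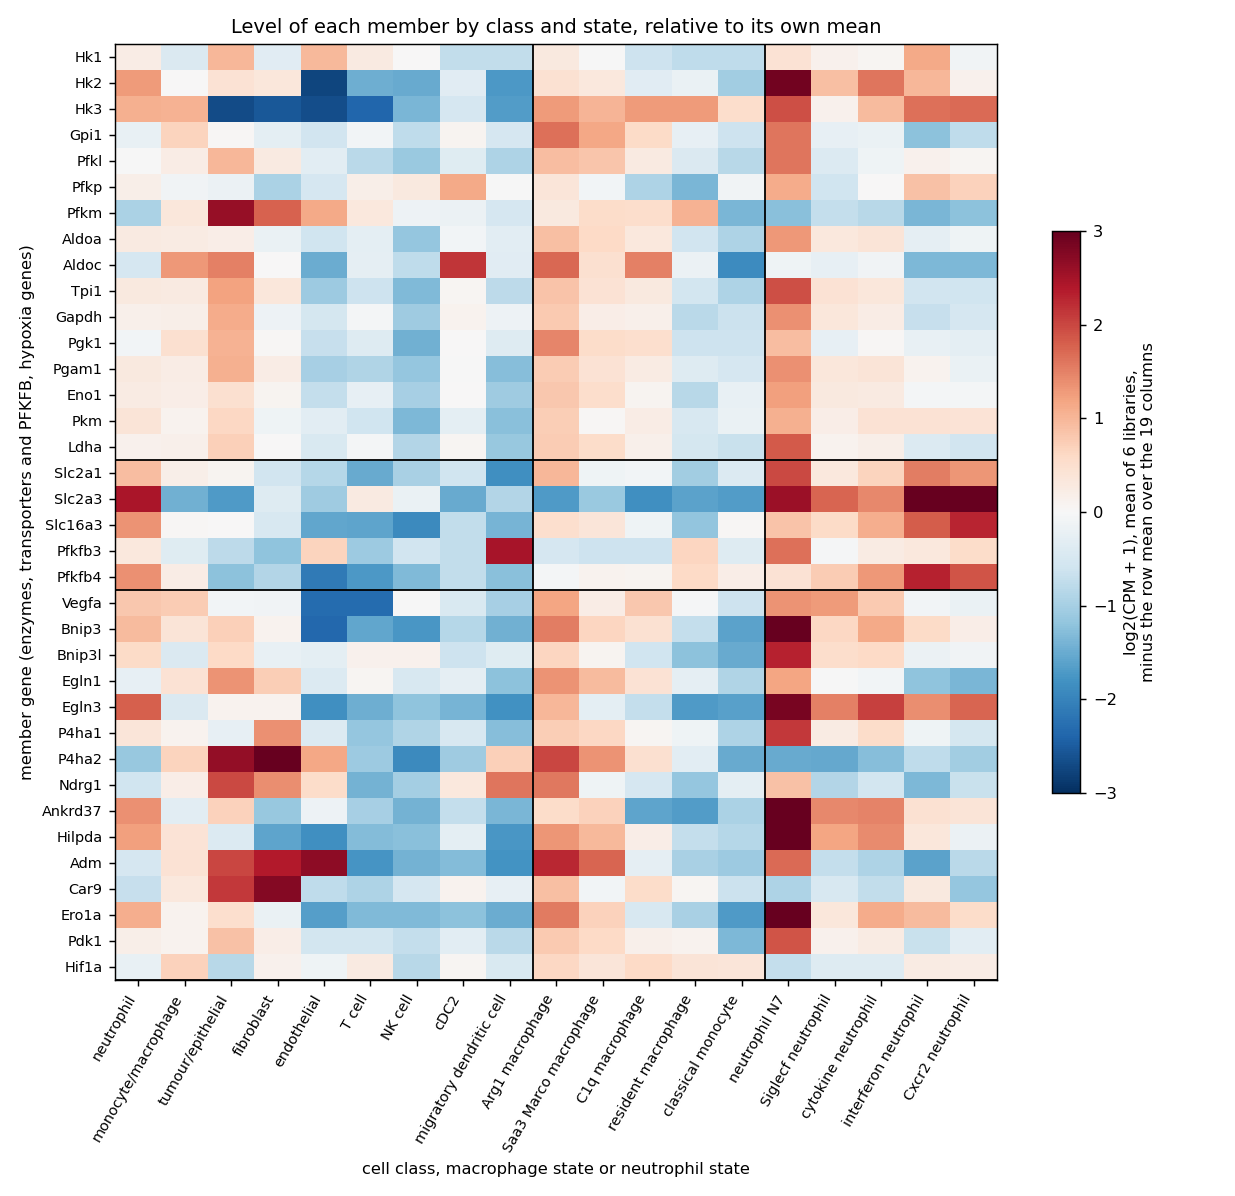
Mean over 6 libraries of each gene's log2(CPM + 1) in 19 cell classes and myeloid states, minus the gene's mean over these columns, with colours limited to -3 and 3. Rows are grouped as glycolytic enzymes, transporters and PFKFB genes and hypoxia genes; the Arg1 macrophages and the neutrophil sub-cluster N7 stand out among the states.

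Among the macrophages, in the partition used, the state marked by Arg1 carried the most of the glycolytic enzymes and of the hypoxia genes. This state of 1058 cells took 1.35 ± 0.228% of UMIs for the enzymes and 0.356 ± 0.0607% for the hypoxia genes. The 1465 C1q macrophages took 0.851 ± 0.105% and 0.179 ± 0.0199%, the 712 Saa3 Marco macrophages 0.975 ± 0.304% and 0.233 ± 0.0898%, the 670 classical monocytes 0.479 ± 0.0535% and 0.0920 ± 0.00831%, and the 852 resident macrophages 0.487 ± 0.0844% and 0.110 ± 0.0301%. By library, the enzymes took 1.27%, 1.59% and 1.67% in the IgG libraries and 1.28%, 1.17% and 1.11% in the anti-VSIG4 libraries in Arg1 macrophages, and 0.770%, 0.952% and 0.967% in the IgG libraries and 0.914%, 0.725% and 0.777% in the anti-VSIG4 libraries in C1q macrophages. The lowest Arg1 library stood above the highest C1q library, and the same held for the hypoxia genes. Arg1 macrophages held 11.2% of the UMIs of all monocyte/macrophages but 17.8% of their glycolytic enzyme UMIs and 19.9% of their hypoxia gene UMIs. The border of this state moved with the clustering: of 100 starts the partition of highest quality is used, and in the next 5 the Arg1 share of UMIs was 0.936% to 1.20% for enzymes and 0.202% to 0.298% for hypoxia genes.

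**Figure D3:**
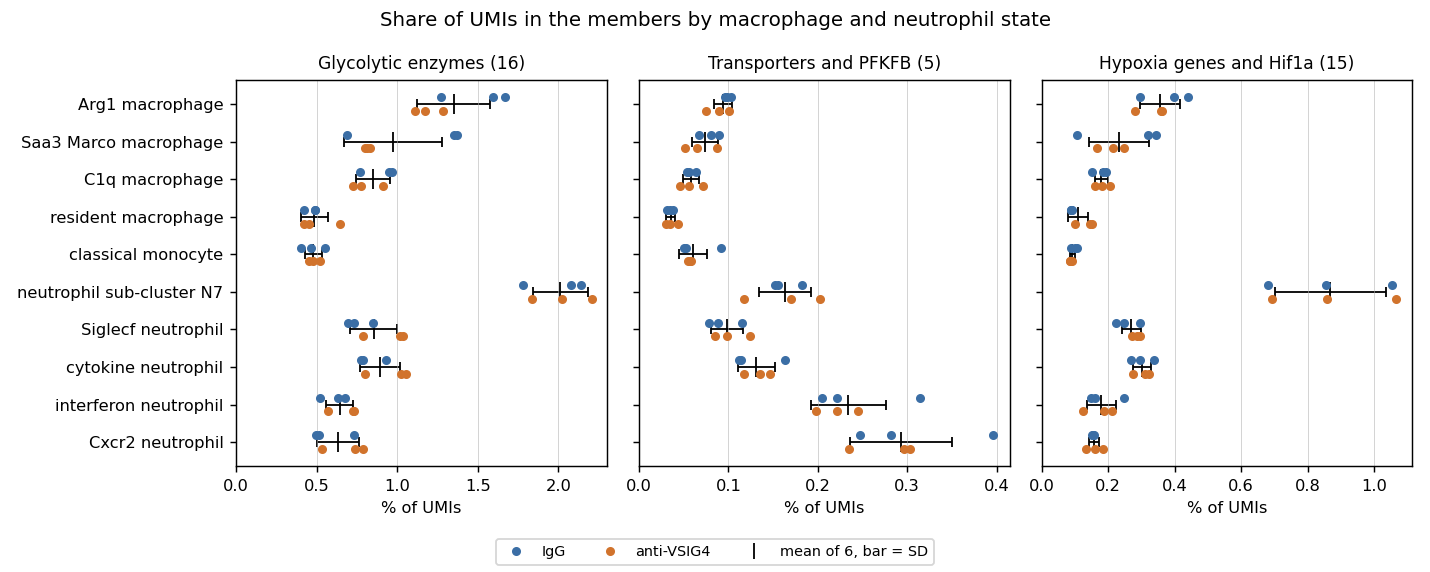
Percent of UMIs (linear axis from 0) in the 3 gene groups for macrophage and neutrophil states. Points are libraries coloured by treatment, vertical ticks are means of 6 libraries and bars their SD. In the partition used, Arg1 macrophages lead the macrophage states and sub-cluster N7 the neutrophils for enzymes and hypoxia genes. Cxcr2 neutrophils lead for the transporter group.

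Against C1q macrophages of the same libraries, 28 of the 35 genes tested were higher in Arg1 macrophages and 0 lower, beside 23.8% of all genes called in either direction and 13% higher. DESeq2 called 28 higher and 0 lower, beside 769 higher and 565 lower of all 7813 genes. Scaling to total UMIs also called 28 higher and 0 lower, beside 807 higher and 1353 lower of the 7813. The total scaling changed the sign of Hk3 alone. In the next 5 partitions a C1q state formed in 3, where 21 to 30 genes were called higher and 1 or 2 lower. Their medians were 0.33 to 0.80 on the log2 scale, beside -0.01 for all genes in each. Calls over all genes were not counted in these partitions, so the counts of calls have no background. Car9 was too low to be tested. For the enzymes, 13 of 16 rose along the whole path, from Hk1 (0.99 ± 0.15 log2) and Gpi1, which turns glucose phosphate into fructose phosphate (1.14 ± 0.09), through Pgk1, the first step to yield ATP (1.05 ± 0.08), and Eno1 (0.80 ± 0.09), to Pkm (0.60 ± 0.07) and Ldha (0.70 ± 0.08). Pfkp, the platelet-type phosphofructokinase, rose by 1.41 ± 0.12. Hk3, Aldoc and Pfkm did not pass (0.07 ± 0.10, adjusted p = 0.67, 0.31 ± 0.15, adjusted p = 0.14 and -0.23 ± 0.33, adjusted p = 0.67 by edgeR).

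Gpi1 stood at 1297, 1959 and 1904 CPM in the IgG libraries and 1205, 1086 and 1156 CPM in the anti-VSIG4 libraries in Arg1 macrophages and at 711, 767 and 679 CPM in the IgG libraries and 686, 661 and 568 CPM in the anti-VSIG4 libraries in C1q macrophages. Pgk1 stood at 811, 993 and 1055 CPM in the IgG libraries and 855, 930.1 and 681 CPM in the anti-VSIG4 libraries in Arg1 macrophages and at 399.5, 462 and 537 CPM in the IgG libraries and 504, 440.1 and 396 CPM in the anti-VSIG4 libraries in C1q macrophages. For both genes every Arg1 library was above every C1q library. Slc2a1 rose by 1.17 ± 0.10, adjusted p = 1.6e-09 and the lactate exporter Slc16a3 by 0.72 ± 0.08, adjusted p = 4.5e-07 (edgeR), while Slc2a3, Pfkfb3 and Pfkfb4 did not pass, at 0.23 ± 0.28, 0.20 ± 0.19 and -0.09 ± 0.20.

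Of the 14 hypoxia genes tested 13 passed, with a median of 1.25 on the log2 scale, beside 0.71 for the 16 enzymes and -0.01 for all genes. Adm, which encodes the vessel-relaxing peptide adrenomedullin, stood at 48.0, 32.9 and 49.3 CPM in the IgG libraries and 30.7, 15.9 and 11.7 CPM in the anti-VSIG4 libraries in Arg1 macrophages and at 2.46, 4.47 and 11.7 CPM in the IgG libraries and 2.87, 5.99 and 0 CPM in the anti-VSIG4 libraries in C1q macrophages. Arg1 macrophages were higher in each library, with overlapping ranges over all libraries, and the log2 fold change was 3.10 ± 0.34, adjusted p = 7.0e-07 (edgeR). The C1q levels of 0 to 11.7 CPM rest on few UMIs, so the size of this fold is uncertain. Egln3, a hydroxylase that marks HIF-1 and is itself induced by it, stood at 135, 109.9 and 119.6 CPM in the IgG libraries and 193, 199 and 67.8 CPM in the anti-VSIG4 libraries and at 41.9, 35.1 and 39.1 CPM in the IgG libraries and 52.8, 57.4 and 24.5 CPM in the anti-VSIG4 libraries in the same order, with no overlap and a log2 fold change of 1.79 ± 0.11, adjusted p = 1.7e-11 (edgeR). Ero1a, which oxidises proteins in the endoplasmic reticulum, followed at 2.11 ± 0.11, P4ha2 at 1.70 ± 0.17, the stress gene Ndrg1 at 2.16 ± 0.11 and Ankrd37 at 2.29 ± 0.25. Bnip3 and Bnip3l, which mark mitochondria for removal, rose by 1.20 ± 0.11 and 1.31 ± 0.14, Hilpda, an inhibitor of lipid droplet breakdown, by 1.19 ± 0.08, and Pdk1, which keeps pyruvate out of mitochondria, by 0.75 ± 0.17. Vegfa, the vessel growth factor, rose by 0.49 ± 0.09. Hif1a itself was the 1 that did not pass, at 0.10 ± 0.11, adjusted p = 0.58 by edgeR.

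A wider list of other HIF pathway and hypoxia genes moved the same way, with 12 of 21 tested called higher and 2 (Egln2 and Cxcr4) lower. Unlike the 36 genes, the genes of this list and of those below were not held out of the genes that built the clusters. Fam162a, a mitochondrial protein, rose by 1.22 ± 0.09, the lipid droplet coat gene Plin2 by 0.38 ± 0.08, the cytokine gene Mif by 0.62 ± 0.07 and the adenosine receptor gene Adora2b by 0.56 ± 0.17 on the log2 scale. Of 18 tricarboxylic acid cycle genes, 0 were called higher and 3 lower by edgeR: Ogdh (-0.50 ± 0.13), Sdhb (-0.69 ± 0.11) and Sdhc (-0.35 ± 0.11). Of 7 pentose phosphate genes, Pgd was higher and Pgls and Taldo1 lower. Of the 12 dissociation stress genes 7 were called higher and 1 lower. They summed to 11058 CPM on average in Arg1 and 9128 CPM in C1q macrophages, and neutrophil markers to 1420.4 to 4793 and 866 to 4573 CPM, with overlapping libraries. The part of either in the differences was not tested.

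**Figure D4:**
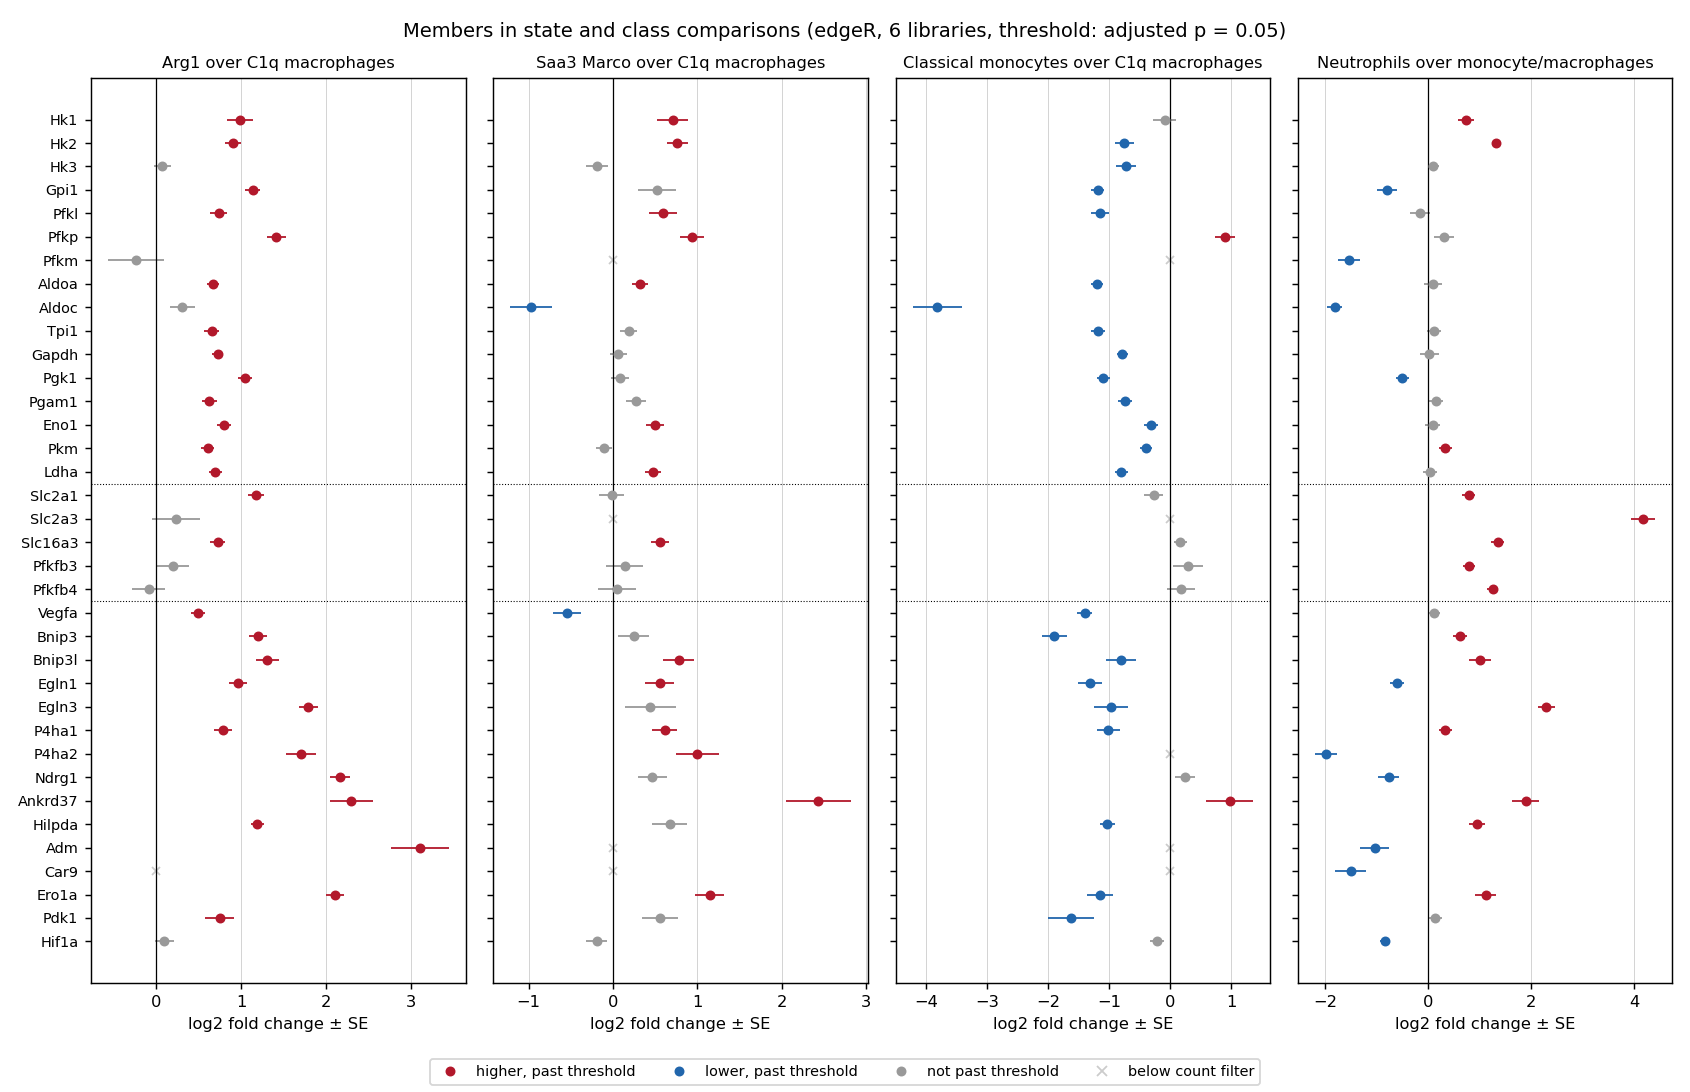
Log2 fold change with standard error (bars) of each gene in 4 panels: Arg1 over C1q macrophages, Saa3 Marco over C1q macrophages, classical monocytes over C1q macrophages, and neutrophils over monocyte/macrophages, each with the library as a block. Red points were higher and blue points lower past an adjusted p of 0.05, grey points did not pass and crosses mark genes below the count filter; the Arg1 panel holds 28 red points, the monocyte panel 22 blue ones.

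The other macrophage states were set against the same C1q libraries, so these comparisons share their reference. Saa3 Marco macrophages, an inflammatory state, were called higher for 14 of 32 genes and lower for 2, beside 22% of all genes in either direction, 12.4% higher and 9.61% lower. Without the library block 10 genes were called there, and the share of all genes called in that fit is not given here. In the partitions of rank 3, 4 and 5 the median log2 fold change of the genes in Saa3 Marco over C1q macrophages was 0.57, 0.74 and 0.66. That of Arg1 over C1q macrophages was 0.33, 0.80 and 0.34, so which of these states led moved with the partition. Classical monocytes were higher for 2 of 31 and lower for 22, beside 42.7% (22.1% higher, 20.6% lower). Resident macrophages were higher for 1 of 31 and lower for 23, beside 21.6% (10.5% higher, 11.1% lower). Enzymes made up 7 of the 14 rises in Saa3 Marco macrophages, 13 of the 22 falls in monocytes and 12 of the 23 falls in resident macrophages. Of the 12 stress genes 5, 5 and 11 were called higher and 1, 4 and 0 lower in the Saa3 Marco, monocyte and resident comparisons, and their part was not tested.

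The largest rises in Saa3 Marco macrophages were Ankrd37 (2.43 ± 0.39), Ero1a (1.15 ± 0.17) and P4ha2 (1.00 ± 0.26), and the genes that fell were Aldoc (-0.97 ± 0.25) and Vegfa (-0.54 ± 0.17), on the log2 scale. In classical monocytes the largest falls were Aldoc (-3.82 ± 0.40), Bnip3 (-1.90 ± 0.21) and Pdk1 (-1.63 ± 0.38) and the rises were Ankrd37 (0.97 ± 0.39) and Pfkp (0.89 ± 0.16). In resident macrophages the largest falls were Aldoc (-1.82 ± 0.35), Pgk1 (-1.27 ± 0.11) and Bnip3 (-1.27 ± 0.16) and the 1 rise was Pfkfb3 (1.14 ± 0.19).

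Among neutrophil states the UMI shares of the transporter group and of the hypoxia genes parted, while single hypoxia genes went both ways. The 3276 Cxcr2 neutrophils, which carry the receptor that draws neutrophils out of blood, took 0.293 ± 0.0572% of UMIs for transporters and PFKFB genes, against 0.0982 ± 0.0179% in the 4844 Siglecf neutrophils, a state described in tumours. By library the transporter share was 0.396%, 0.282% and 0.247% in the IgG libraries and 0.303%, 0.296% and 0.235% in the anti-VSIG4 libraries in Cxcr2 neutrophils and 0.115%, 0.0890% and 0.0780% in the IgG libraries and 0.124%, 0.0980% and 0.0854% in the anti-VSIG4 libraries in Siglecf neutrophils, with no overlap. Cxcr2 neutrophils held 19.9% of all neutrophil UMIs and 35.9% of the neutrophil UMIs of this gene group, but 11.51% of the hypoxia gene UMIs. Hypoxia genes took 0.157 ± 0.0159% in Cxcr2, 0.270 ± 0.0290% in Siglecf and 0.301 ± 0.0271% in the 4494 cytokine neutrophils, and enzymes 0.634 ± 0.132% in Cxcr2 and 0.854 ± 0.146% in Siglecf neutrophils.

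Slc2a3 stood at 451, 348 and 407 CPM in the IgG libraries and 364, 216 and 213 CPM in the anti-VSIG4 libraries in Cxcr2 neutrophils and at 99.3, 95.9 and 125 CPM in the IgG libraries and 79.5, 119.7 and 54.2 CPM in the anti-VSIG4 libraries in Siglecf neutrophils, a log2 fold change of -2.47 ± 0.14, adjusted p = 3.9e-14 (edgeR, Siglecf over Cxcr2). Slc16a3 stood at 2983, 1993 and 1643 CPM in the IgG libraries and 2088, 2236 and 1719 CPM in the anti-VSIG4 libraries in Cxcr2 neutrophils and at 799.7, 556 and 446 CPM in the IgG libraries and 819, 631 and 583 CPM in the anti-VSIG4 libraries in Siglecf neutrophils, -2.36 ± 0.09, adjusted p = 2.3e-17 by edgeR. For both genes every Cxcr2 library was above every Siglecf library. All 5 transporters and PFKFB genes were called lower in Siglecf neutrophils, while Vegfa (0.85 ± 0.10) and Hilpda (0.70 ± 0.09) were called higher, both with no overlap of libraries. Of 12 hypoxia genes tested 4 were called higher, with Egln1 and Ankrd37 beside those 2, and 4 lower, Egln3, Ndrg1, Ero1a and Hif1a. Of 14 enzymes tested Gapdh and Tpi1 were called higher and 7 lower, the largest falls in Hk3 (-2.24 ± 0.14) and Pfkp (-1.94 ± 0.12). Of the 12 stress genes 9 were called lower in Siglecf neutrophils and 0 higher, and their part was not tested.

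In all, 6 of 31 genes were called higher and 16 lower in Siglecf neutrophils, beside 67.4% of all genes in either direction (34.6% higher, 32.9% lower), so the total is near the background, and the split rests on the scaling. Scaled to total UMIs, 16 were called higher and 10 lower, beside 60.7% of all genes higher and 15.6% lower, the median of all genes moved from 0.08 to 0.73 on the log2 scale, and the sign changed for Hk1, Gpi1, Aldoa, Pgk1, Pgam1, Eno1, Bnip3, Bnip3l and Pdk1. The signs of Slc2a3, Slc16a3, Vegfa and Hilpda were the same under both scalings. Cytokine and interferon neutrophils were set against the same Cxcr2 libraries. Cytokine neutrophils gave 14 higher and 10 lower of 31, beside 54% (26.5% higher, 27.6% lower), and 19 higher and 7 lower scaled to total UMIs (beside 44.8% higher and 16.6% lower), which changed the sign of Hk1, Pkm, Egln3 and Ndrg1. Hk2 and Hilpda were among the genes called higher in cytokine neutrophils (1.16 ± 0.09 and 1.28 ± 0.08 log2), and the 5 transporters and PFKFB genes were called lower. Interferon neutrophils gave 4 higher and 2 lower of 30, beside 12.6% (8.57% higher, 4.03% lower), with Hk1 higher by 1.37 ± 0.16, and 3 higher and 3 lower scaled to total UMIs (beside 7.57% higher and 8.06% lower). In 3 of the next 5 partitions interferon neutrophils gave 4 higher and 9 to 15 lower. Their medians there were -0.26, -0.12 and -0.22 on the log2 scale, beside -0.02, 0.02 and -0.01 for all genes. Calls over all genes were not counted in these partitions. Of 15 tricarboxylic acid cycle genes, 8 were called higher and 0 lower in Siglecf neutrophils (edgeR).

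The highest enzyme and hypoxia gene shares in any neutrophil group were in a sub-cluster of 843 cells, N7, which the markers left without a name. N7 was singled out after its values were seen, so what follows is a description with no test. It took 2.01 ± 0.170% of UMIs for the enzymes and 0.868 ± 0.167% for the hypoxia genes, above the mean of every class and named state. It made up 5.57% of neutrophils on average and 5.47% of their UMIs, but 12.9% of their glycolytic enzyme UMIs and 17.2% of their hypoxia gene UMIs. Of the 36 genes, 26 were higher in N7 than in the other neutrophils in all 6 libraries, as were 19.2% of 5259 background genes. A ratio of means above 2 was found for 24 of the 36 and for 12.1% of the background genes. The median ratio was 2.25 for the 36 genes and 0.993 for the background genes. Background genes had a mean of at least 20 CPM in N7 or in the other neutrophils. No such filter was set on the 36 genes, so the sets are not matched for level.

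Ero1a stood at 909, 1445 and 1494 CPM in the IgG libraries and 1134, 1282 and 1042 CPM in the anti-VSIG4 libraries in N7 and at 164, 149 and 164 CPM in the IgG libraries and 215, 219 and 141 CPM in the anti-VSIG4 libraries in the other neutrophils, a ratio of means of 6.95. Hilpda stood at 4353 ± 1157 CPM against 972 ± 228 CPM (ratio 4.48), Bnip3 at 612 ± 104 CPM against 123 ± 30.01 CPM (4.98), and P4ha1 at 302 ± 57.4 CPM against 75.4 ± 10.03 CPM (4.002). Among the enzymes Gpi1 stood at 1380.4 ± 189.9 CPM against 334 ± 46.9 CPM (4.14) and Ldha at 2511 ± 510.4 CPM against 661 ± 112 CPM (3.80). The libraries of N7 and of the other neutrophils did not overlap for any of these 6 genes. The members of the transporter group differed from each other: the group's median ratio was 1.09, with Slc2a3 at 1.09 and Pfkfb4 at 0.497, while Slc2a1 stood at 2.24 and Pfkfb3 at 2.79. Slc16a3 (0.700) and Hif1a (0.700) were higher in N7 in 0 of 6 libraries. Enzymes had a median ratio of 2.17 and hypoxia genes of 3.88.

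As context, markers summed over the fixed neutrophil list came to 19113 CPM on average in N7 and 44442 CPM in all neutrophils, with 0 of 10 markers at 0 in N7, and the 12 stress genes to 23878 and 21486 CPM. Among them the heat shock gene Hspa1a stood at 4028 ± 1931 CPM in N7 and 255 ± 276 CPM in the other neutrophils. Higd1a, a mitochondrial protein induced by low oxygen, stood at 1267 ± 257 CPM in N7 and 209 ± 24.9 CPM in the other neutrophils. Hspa1a and Higd1a were chosen after their values were seen, and neither was held out of the genes that built the clusters. The part of heat shock or of handling in the N7 values was not tested.

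No member of the list differed between anti-VSIG4 and IgG past a false discovery rate of 0.05 in any class or state tested. Those were monocyte/macrophages, neutrophils, tumour/epithelial cells, fibroblasts, T cells, endothelial cells and the states given below. NK, B, plasma, dendritic and acinar cells and the interferon and proliferating macrophage states were not compared between treatments. In monocyte/macrophages edgeR called 0 of 36 genes, beside 0% of all 13033 genes, and DESeq2 also called 0 of 36, beside 0.184% of all genes. Hk1, Gpi1, Pfkl, P4ha2 and Adm had an unadjusted p below 0.05, all lower under anti-VSIG4. P4ha2 was called when genes of low count were not filtered out, beside 0.19% of all genes. Of the 36 genes 30 were lower and the median was -0.24, beside 0.00 for all genes tested, all on the log2 scale.

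Gpi1 stood in monocyte/macrophages at 661, 1060.0 and 848 CPM in the IgG libraries and 589.7, 653 and 532 CPM in the anti-VSIG4 libraries, with a log2 fold change of -0.57 ± 0.22, adjusted p = 1.00 by edgeR. Every IgG library was above every anti-VSIG4 library. Hk1 stood at 56.5, 70.7 and 67.5 CPM in the IgG libraries and 53.0, 47.9 and 41.4 CPM in the anti-VSIG4 libraries, with -0.48 ± 0.17, adjusted p = 1.00 by edgeR, and Pfkl at 142, 234 and 178 CPM in the IgG libraries and 119.9, 137 and 137 CPM in the anti-VSIG4 libraries, with -0.52 ± 0.23, adjusted p = 1.00. The groups did not overlap for either gene, while those of P4ha2, Adm, Egln1, Ankrd37 and Ero1a did. The direction differed with the kind of library: among few-kind libraries alone 22 of 36 genes were higher under anti-VSIG4 with a median of 0.11, and among many-kind libraries 31 of 36 were lower and 9 were called, beside 2.42% of all genes. Each split has a lone library in 1 group, IgG 1 among few-kind and anti-VSIG4 3 among many-kind libraries, which is assumed to vary like the others. Those 9 were Hk1, Gpi1, Egln1, Egln3, P4ha2, Ankrd37, Adm, Ero1a and Pdk1, all lower. Ero1a was 0.35 among few-kind and -1.10 among many-kind libraries, and Ankrd37 0.33 and -1.23. With the kind of library as a covariate over all 6 libraries, 29 of 36 genes were lower with a median of -0.21, and 0 were called, beside 0.0307% of all genes.

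In Arg1 macrophages 30 of 34 genes were lower, 15 of 15 enzymes among them, with a median of -0.34. EdgeR called 0, beside 0% of all genes, DESeq2 called 0, beside 0.0263%, and 8 had an unadjusted p below 0.05, with Hif1a higher and the other 7 lower. Among many-kind libraries 5 were called, beside 2.14% of all genes, and among few-kind libraries 0, beside 0.189%, with a median of -0.04. With library kind as a covariate 29 of 34 were lower and the median was -0.26. Adm stood at 48.0, 32.9 and 49.3 CPM in the IgG libraries and 30.7, 15.9 and 11.7 CPM in the anti-VSIG4 libraries, with -1.17 ± 0.33, adjusted p = 0.80 by edgeR, and the groups did not overlap. In Saa3 Marco macrophages 28 of 33 were lower with a median of -0.37, 0 called by edgeR beside 0.0344% and 0 by DESeq2 beside 0.344%, and 5 below an unadjusted 0.05. With library kind as a covariate the lean was nearly gone, with 15 higher, 18 lower and a median of -0.05. The median was 0.36 among few-kind libraries, where Egln3 was called higher against the lone IgG library, beside 0.523% of all genes. It was -0.50 among many-kind libraries, where Adm and Ero1a were called lower, beside 0.85%, and without IgG 1 Gpi1 and Ankrd37 were called lower, beside 0.499%. In C1q macrophages 26 of 34 were lower with a median of -0.16, 0 called by edgeR and DESeq2 beside 0% by each, and 1 below an unadjusted 0.05. Among few-kind libraries 23 of 35 were higher there with a median of 0.14, among many-kind libraries 30 of 34 were lower with a median of -0.32, and with library kind as a covariate 28 of 34 were lower with a median of -0.11. Of the 12 dissociation stress genes 9 were lower in monocyte/macrophages, 6 in Arg1, 7 in C1q and 3 in Saa3 Marco macrophages, with medians of -0.16, 0.00, -0.03 and 0.21, and 0 were called; their part was not tested. These states share cells with the class and are not independent of it.

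In neutrophils edgeR called 0 of 35 genes, beside 0.00905% of all genes, and DESeq2 0, beside 0.136%. Of the 35 genes 27 were higher under anti-VSIG4 with a median of 0.22, and 1, Aldoa, had an unadjusted p below 0.05. The median was 0.10 with library kind as a covariate, 0.19 among few-kind and 0.03 among many-kind libraries. The 12 stress genes lay the other way, 11 lower with a median of -0.36 in neutrophils and 11 lower with -0.44 in Siglecf neutrophils, with 0 called in either, and their part was not tested. Aldoa stood at 1151, 1035 and 1105 CPM in the IgG libraries and 1399, 1459 and 1229 CPM in the anti-VSIG4 libraries, with 0.41 ± 0.16, adjusted p = 0.86 by edgeR. The anti-VSIG4 libraries were all above the IgG libraries for Aldoa, and for Gapdh (0.49 ± 0.22, adjusted p = 0.86 by edgeR) they overlapped. In Siglecf neutrophils 28 of 32 genes were higher with a median of 0.35, 0 called by edgeR beside 0.0123% and 0 by DESeq2 beside 0.159%, and 8 below an unadjusted 0.05, all higher. Slc2a3 stood at -0.59 ± 0.23, adjusted p = 0.46 in Cxcr2 neutrophils, -0.56 ± 0.26, adjusted p = 0.85 in cytokine neutrophils and -0.64 ± 0.33, adjusted p = 0.92 in N7 by edgeR. In the classical monocyte, resident macrophage, Cxcr2, cytokine and interferon neutrophil states and in N7, edgeR and DESeq2 called 0 genes, beside 0%, 0%, 0%, 0%, 0% and 0.034% of all genes in that order, and 1, 1, 3, 3, 1 and 1 of their genes had an unadjusted p below 0.05. Their medians by edgeR were -0.02, 0.14, 0.03, 0.15, -0.03 and -0.03 in the same order. Genes higher and lower were 11 and 15, 16 and 13, 18 and 13, 21 and 11, 14 and 15, and 14 and 16. The lean of a class was thus not shared by each of its states.

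The difference of the treatment effects, neutrophils minus monocyte/macrophages, was fitted with the library as a block, a fit added after the data were seen. It called 0 of 36 genes, beside 0.0149% of all genes, with 0 by DESeq2, beside 0.0074%, and 15 below an unadjusted p of 0.05. Of the 36 genes 33 lay above 0 with a median of 0.49 on the log2 scale. Gpi1 had 0.83 ± 0.23, unadjusted p = 0.0019 and adjusted p = 0.40 (edgeR). Without IgG 1 the same fit called 16 genes, all above 0, beside 1.62% of all genes (1.41% above 0), and without the filter on low counts it called Gpi1, beside 0.32%. The median was 0.35 scaled to total UMIs, 0.13 among few-kind libraries and 0.55 among many-kind libraries, where Gpi1 and Ero1a were called, beside 0.364% of all genes.

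In tumour/epithelial cells 20 genes were higher and 16 lower with a median of 0.04, and 0 of 36 had an unadjusted p below 0.05 or were called, beside 0% of all genes by edgeR and 0.0333% by DESeq2. The split moved to 30 higher and 6 lower with library kind as a covariate (median 0.14), 27 and 9 among few-kind (0.23) and 13 and 23 among many-kind libraries (-0.05). Of the 12 stress genes 10 were lower in tumour/epithelial cells with a median of -0.46, and 12 were lower in fibroblasts with -0.51, with 0 called in either, and their part was not tested. In fibroblasts 24 of 36 were lower with a median of -0.11, 0 were called beside 0% by edgeR and 0.333% by DESeq2, and Egln3, Ndrg1 and Adm were below an unadjusted 0.05, all lower, and these 3 were called when genes of low count were not filtered out, beside 0.823% of all genes. Among few-kind libraries 22 of 36 were higher with a median of 0.13, among many-kind libraries 30 of 35 were lower with -0.46, and with library kind as a covariate 26 of 36 were lower with -0.09. Adm stood in fibroblasts at 54.2, 52.4 and 39.4 CPM in the IgG libraries and 35.8, 12.2 and 9.36 CPM in the anti-VSIG4 libraries, with -1.40 ± 0.43, adjusted p = 0.68 by edgeR, and the groups did not overlap. In T cells the median was 0.01 and in endothelial cells 0.20, with 0 called by edgeR (beside 0% and 0.0151%) and by DESeq2 (beside 0.0553% and 0.121%) and 2 and 1 genes below an unadjusted 0.05. Among many-kind libraries Car9 was called higher in tumour/epithelial cells, Adm lower in fibroblasts and Hilpda higher in resident macrophages, beside 0.701%, 1.02% and 0.369% of all genes.

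**Figure D5:**
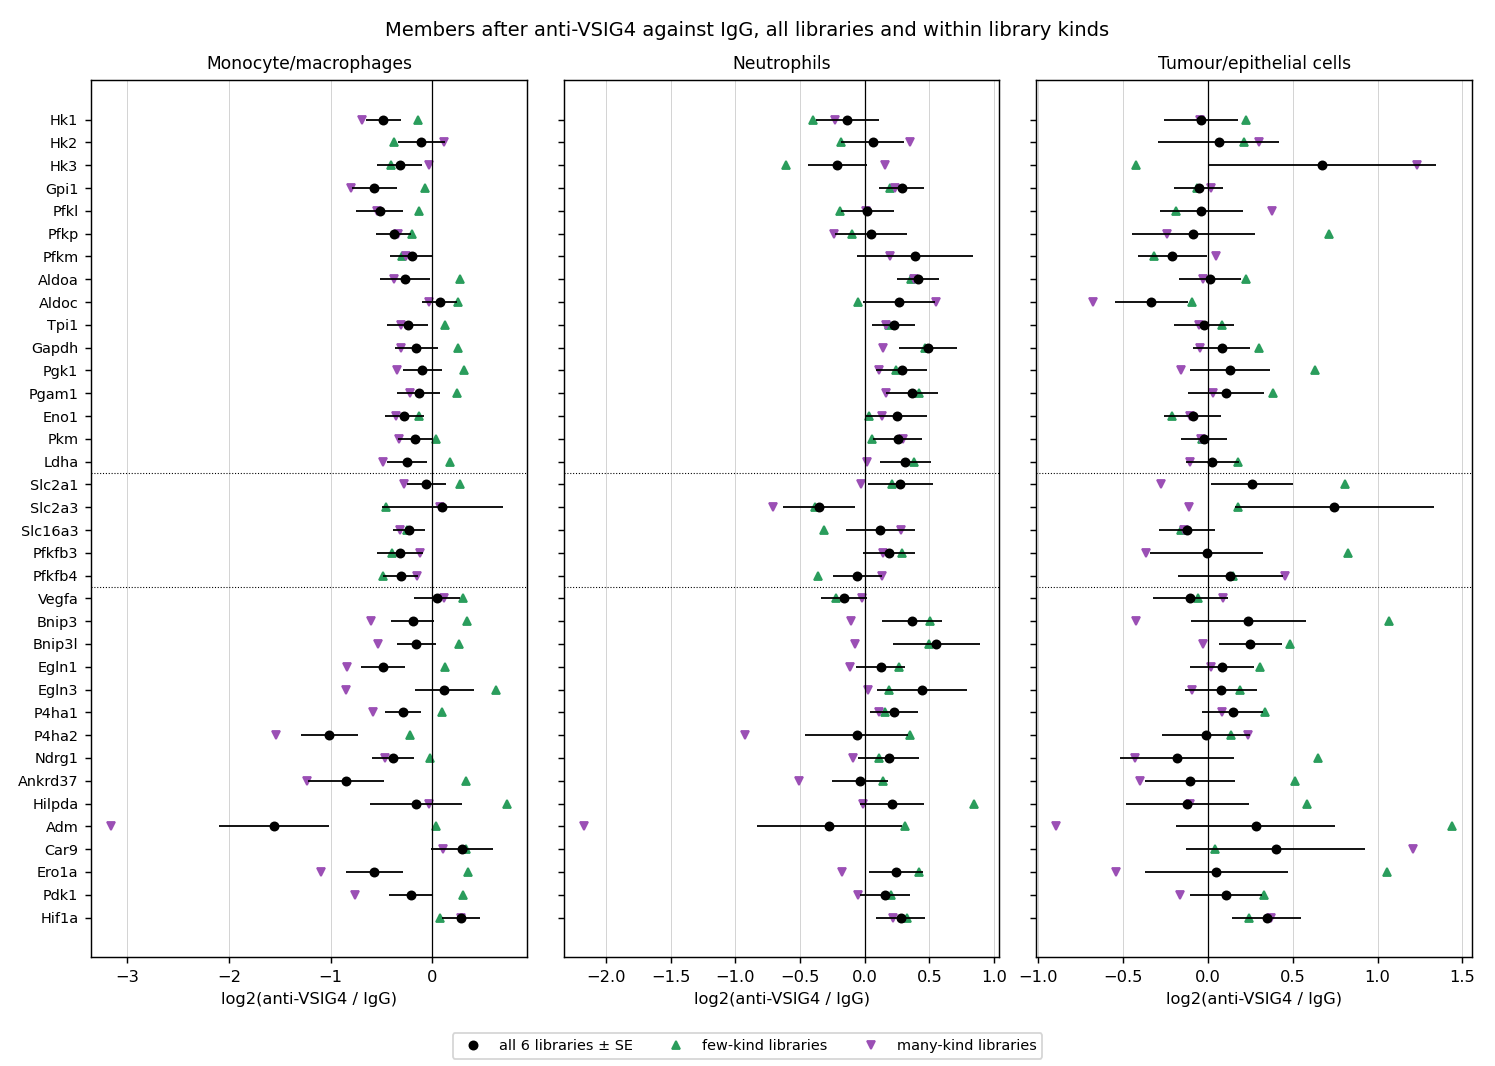
Log2 fold change (anti-VSIG4 over IgG) of each gene tested in monocyte/macrophages, neutrophils and tumour/epithelial cells, 1 panel each, with 0 marked. Black points with standard error bars use all 6 libraries, green up-triangles few-kind libraries and purple down-triangles many-kind libraries; with all 6, 30 of 36 monocyte/macrophage points lie below 0 and 27 of 35 neutrophil points above it, and 0 passed an adjusted p of 0.05.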

How the data were processed

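Droplet single-cell RNA-seq libraries of 6 tumours, 1 per mouse, were analysed. The deposited matrices hold whole UMI counts for each gene in each cell, written by PISA 1.0 per the file headers. Per the submitters' processing notes, STAR and Seurat 4.11 also had a part. Neither build nor annotation was found in the labels or headers. Every deposited barcode held at least 1000 UMIs. Cells were kept at 500 UMIs, 300 genes and no more than 20% mitochondrial UMIs. Scrublet, run at an expected rate of 0.06, marked 0 cells and was judged to have failed; doublets stayed in, and removing the 6% of highest scores was an alternative.

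Leiden clusters (scanpy 1.11.5, leidenalg 0.10.2, Python 3.11.15) used 3000 variable genes without the 36 genes described, 40 components, 20 neighbours and resolution 1.0. Monocyte/macrophages and neutrophils were integrated over libraries with Seurat 5.3.0 and clustered again at resolution 0.8, from 100 starts each, of which the partition of highest quality was kept and the next 5 were alternatives added after seeing the data. Clusters were named from fixed marker lists, and other names are possible where the markers are shared. Gene lengths for the nucleus-like call came from the mouse reference annotation.

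Counts were summed per library and class or state, and tested over all genes by edgeR 4.0.16 (quasi-likelihood, TMM scaling, filterByExpr, R 4.3.3) with Benjamini-Hochberg adjustment at 0.05. Class and state comparisons had the library as a block, and treatment comparisons had 3 against 3 libraries. At least 20 cells per library were required. Levels are CPM of all UMIs of the population. DESeq2 1.42.0, other filters and scalings, and each library left out were alternatives. The test was checked on simulated data. Genes named with values were those past the threshold with the largest change, or, where none passed, those of smallest p at a mean of at least 20 CPM; other named genes were chosen after their values were seen. The 36 genes and the lists set beside them were chosen with earlier results of these data known.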

Additional observations from a re-analysis of the deposited data

How the results depend on the processing

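The 210 single-gene results were each refitted under several alternatives. Of the values so obtained, 2829 kept their sign and their call, 22 changed sign, 77 lost the threshold and 21 gained it. The treatment values turned mainly with the kind of library. Among few-kind libraries alone, the log2 fold changes in monocyte/macrophages were 0.12 for Egln1, 0.33 for Ankrd37 and 0.35 for Ero1a, where all 6 libraries gave negative values; Ankrd37 became 0.03 in Arg1 and 0.15 in Saa3 Marco macrophages, Gpi1 0.41 in Saa3 Marco macrophages, Hk1 0.05 in resident macrophages, Pfkp 0.03 in fibroblasts and Slc2a3 0.06 in N7. Among many-kind libraries alone, neutrophils gave -0.08 for Bnip3l and -0.11 for Bnip3, tumour/epithelial cells -0.03 for Bnip3l, -0.28 for Slc2a1, 0.05 for Pfkm and -0.43 for Bnip3, endothelial cells -0.09 for Ero1a, C1q macrophages -0.08 for Bnip3l, interferon neutrophils 0.06 for Hk1 and -0.20 for Gapdh, and N7 -0.18 for Gapdh. With each library left out, Bnip3 in tumour/epithelial cells ran from -0.01 to 0.67, the genes called in the difference of treatment effects from 0 to 16, and those called in Saa3 Marco macrophages from 0 to 2. The many-kind libraries called 9 genes in monocyte/macrophages, 5 in Arg1 and 2 in Saa3 Marco macrophages, 1 each in resident macrophages, tumour/epithelial cells and fibroblasts, and 2 in the difference of treatment effects; the few-kind libraries called 1 in Saa3 Marco macrophages. Without the filter on low counts 1 gene was called in monocyte/macrophages, 3 in fibroblasts and 1 in the difference of treatment effects. The cause of these changes was not tested.

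The replicate block on the shared numbers of the treatment groups left 0 genes called in every treatment comparison. Same-numbered libraries deviated with correlations of -0.41 to 0.52, so the numbers were not taken as pairs. By class these were 0.11 to 0.49 for number 1, -0.41 to -0.02 for number 2 and 0.16 to 0.52 for number 3. Numbers 1 and 3 join libraries of the same kind, and number 2 joins a many-kind and a few-kind library. With no replicate block between states, 10 genes instead of 16 were called in Saa3 Marco macrophages and 2 instead of 6 in interferon neutrophils. For these fits the share of all genes called is not given here. DESeq2 called 3 in interferon neutrophils, beside 262 higher and 83 lower of all 3697 genes. In interferon neutrophils the partitions of rank 3, 5 and 6 called 19, 13 and 18, and Pfkfb4 became -0.13 at rank 3. Calls over all genes were not counted in these partitions. For Arg1 macrophages the partitions of rank 3, 4, 5 and 6 gave 0.972%, 1.09%, 0.936% and 1.02% of UMIs for enzymes and 0.213%, 0.256%, 0.202% and 0.226% for hypoxia genes, and ranks 2 to 6 gave 0.0831%, 0.0705%, 0.0771%, 0.0694% and 0.0752% for the transporter group. For C1q macrophages ranks 4 and 5 gave 0.690% and 0.745% for enzymes and 0.144% and 0.157% for hypoxia genes, and rank 4 gave 0.0457% for the transporter group, while ranks 2 and 6 formed no C1q state and gave no value.

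With mitochondrial, ribosomal and haemoglobin genes out of the denominator, the shares of enzymes, transporter group and hypoxia genes were 1.62%, 0.0804% and 0.252% in tumour/epithelial cells, 1.03%, 0.0801% and 0.242% in monocyte/macrophages, 0.846%, 0.0552% and 0.209% in fibroblasts, 1.63%, 0.114% and 0.431% in Arg1 and 1.03%, 0.0704% and 0.218% in C1q macrophages, and enzymes took 2.23% in N7. Without Gapdh the enzymes took 0.779% in tumour/epithelial cells, 0.606% in monocyte/macrophages, 0.610% in neutrophils, 0.492% in fibroblasts, 0.974% in Arg1 and 0.609% in C1q macrophages and 1.45% in N7. Not thinned, Slc2a3 UMIs were held by 14.1% of neutrophils, 4.99% of monocyte/macrophages and 10.9% of T cells. Neutrophils held a median of 1574 UMIs per cell, and how far this depth limits genes of low level was not tested.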
